A study of Homo sapiens with 2 samples.

Results

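The proteasome and immunoproteasome subunit genes were compared between RT-R-MDA-MB-231 and parental MDA-MB-231 cells. Members were the genes whose symbol is PSMA, PSMB, PSMC, PSMD, PSME, PSMF or PSMG followed by digits only, which gave 48 of the 24462 gene symbols in the count tables. Of these, 46 were measured, that is, had at least 20 counts in a library. The other two, PSMA8 of the testis-type core and PSMB11 of the thymus-type core, had 0 counts in both libraries, which allows at most 3 counts of each per library. The parental cells, MDA-MB-231, are a long-established human triple negative breast cancer line. The resistant cells, RT-R-MDA-MB-231, were derived from them by X-ray doses of 2 Gy given again and again until 50 Gy had been reached. Both were grown in the same serum-supplemented RPMI medium, and the sources used here do not say whether the resistant line is a clone or a pool. Each line gave 1 library from total RNA by a 3' tag protocol, which reads mostly the ends of polyadenylated transcripts, with 10014804 counts in the RT-R library and 9255008 in the parental library. No difference below therefore has a replicate check, no p-value is given, and every 95% interval covers counting error within these libraries only. ESR1 had 1 and PGR 0 counts in the RT-R library, against 0 counts of each in the parental library. ERBB2, which encodes HER2, had 174 counts in the RT-R library and 230 in the parental library, and the line's markers VIM, CD44, EGFR and KRT18 had at least 444 counts in every library. In bulk RNA, fewer cells with a transcript and less of it per cell cannot be told apart.

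The proteasome is the protease of the cytosol and nucleus that degrades ubiquitin-tagged proteins. Its barrel-shaped core is built from outer alpha rings and inner beta rings, of which only PSMB5, PSMB6 and PSMB7 carry catalytic sites, and a regulatory particle caps it to recognise, unfold and feed in substrates. Cells exposed to interferon or of immune origin build PSMB8, PSMB9 and PSMB10 in place of the catalytic subunits, and this immunoproteasome produces many of the peptides shown on MHC class I molecules.

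Promoters are given first for the members on which the comparison turns, from RefSeq's table for GRCh38.p14, since interferon and stress factors are known to act at these genes. Each runs 5' to 3' from 250 bases before to 50 bases after an annotated transcript start, and capitals mark matches, on either strand, to the letters of the antioxidant response element core (TGACNNNGC), the interferon-stimulated response element core (GAAANNGAA), the interferon gamma-activated site core (TTCNNNGAA) or the CCAAT box. No match overlapped a match to another motif in the windows shown. PSMB8 has 2 listed starts on the minus strand at chr6:32844630-32844929 and chr6:32843998-32844297, and both are shown because they differ in these letters. PSMB9 lies nearby on the plus strand at chr6:32853942-32854241, PSMB3 on the plus strand at chr17:38752491-38752790 and PSME2 on the minus strand at chr14:24146561-24146860.
PSMB8, upstream start: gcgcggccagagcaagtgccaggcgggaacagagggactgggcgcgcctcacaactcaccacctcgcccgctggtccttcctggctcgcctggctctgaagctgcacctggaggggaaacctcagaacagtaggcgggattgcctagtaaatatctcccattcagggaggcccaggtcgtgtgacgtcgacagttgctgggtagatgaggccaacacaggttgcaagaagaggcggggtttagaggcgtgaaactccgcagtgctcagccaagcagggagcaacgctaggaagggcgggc
PSMB8, downstream start: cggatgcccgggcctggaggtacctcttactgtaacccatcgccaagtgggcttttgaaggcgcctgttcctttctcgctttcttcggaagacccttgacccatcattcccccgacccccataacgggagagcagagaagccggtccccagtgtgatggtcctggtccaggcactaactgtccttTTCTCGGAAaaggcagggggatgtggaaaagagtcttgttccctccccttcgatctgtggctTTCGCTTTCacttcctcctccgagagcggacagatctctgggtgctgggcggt
PSMB9: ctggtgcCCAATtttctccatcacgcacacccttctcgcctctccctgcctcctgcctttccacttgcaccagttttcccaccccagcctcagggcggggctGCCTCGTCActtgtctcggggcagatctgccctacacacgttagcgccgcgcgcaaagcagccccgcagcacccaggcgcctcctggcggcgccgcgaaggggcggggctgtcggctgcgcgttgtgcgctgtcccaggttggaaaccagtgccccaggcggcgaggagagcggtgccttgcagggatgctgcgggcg
PSMB3: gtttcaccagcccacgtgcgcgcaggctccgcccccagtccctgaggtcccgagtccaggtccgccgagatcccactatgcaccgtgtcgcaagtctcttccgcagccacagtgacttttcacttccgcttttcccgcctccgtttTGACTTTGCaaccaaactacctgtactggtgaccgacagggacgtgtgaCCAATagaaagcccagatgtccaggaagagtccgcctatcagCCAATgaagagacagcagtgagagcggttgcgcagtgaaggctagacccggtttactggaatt
PSME2: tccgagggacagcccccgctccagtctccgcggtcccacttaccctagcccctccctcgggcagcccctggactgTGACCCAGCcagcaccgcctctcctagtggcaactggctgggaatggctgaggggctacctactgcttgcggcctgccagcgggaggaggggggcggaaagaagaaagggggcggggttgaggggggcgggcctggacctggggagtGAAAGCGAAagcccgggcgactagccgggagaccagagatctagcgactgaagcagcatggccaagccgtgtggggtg
The downstream PSMB8 promoter and the PSME2 promoter each held 1 interferon-stimulated core, whereas none was found in the windows of the upstream PSMB8 start, PSMB9 or PSMB3. PSMB9, PSMB3 and PSME2 each held 1 antioxidant core, and neither PSMB8 window held one. Promoters were found for 42 members, 8 of them with several starts, and a gene was counted when any of its windows held the letters. The antioxidant core was found for 15 of these 42 members (35.7%), against 19.4% of 9390 measured genes with a promoter in the table. The interferon-stimulated core was found for 8 members (19%) and 8.74% of those genes, the interferon gamma core for 8 (19%) and 8.52%, and the CCAAT box for 20 (47.6%) and 43.6%. The sets differ, since the 42 members include PSMA8 and PSMB11, which were not measured. PSMA8 was among the members with the interferon gamma core and PSMB11 among those with the CCAAT box. Such matches describe letters in a window and do not show a bound site.

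Messenger RNAs of the proteasome were for the most part slightly less abundant in the RT-R library. Of the 46 measured members, 40 had a log2 ratio of RT-R to parental below 0 (87.0%), against 51.0% of the 12644 measured genes. The interval lay wholly below equal expression for 35 members (76.1%), against 30.4% of all measured genes and 35.9% of the 9418 genes with at least 100 counts, a class that holds every measured member. It lay above for 3 members, PSMB1, PSMB7 and PSMB8, or 6.52%, against 27.7% of all measured genes and 29.1% of those with at least 100 counts. The median log2 ratio of the members was -0.27, and that of all measured genes was -0.01. The shift was small for most: the quartiles of the members were -0.44 and -0.12, and the median absolute log2 ratio of the members, 0.29, was no larger than that of all genes, 0.34. With the requirement of a 1.5-fold difference and an interval that excluded 1, 8 members were lower (17.4%, against 11.9% of all measured genes) and 0 were higher (against 13.8%). With the same requirement at 2-fold, 2 members were lower (4.35%, against 4.00%) and 0 higher (against 6.95%). The share past 2-fold in the lower direction was thus near that of all measured genes. Of the 9418 genes with at least 100 counts, 1081 were lower and 997 higher at 1.5-fold, and 267 lower and 359 higher at 2-fold. Scaling by total counts or by the upper quartile left 38 members below 0 and 28 with an interval below equal expression, against 27.5% and 27.8% of all measured genes. By these scalings 6 members were past 1.5-fold lower (13.0%), near the 10.4% and 10.6% of all measured genes, and PSMC2 and PSME2 were no longer called. The members whose intervals then spanned equal expression were PSMA3, PSMA5, PSMB9, PSMB10, PSMC5, PSMD12 and PSMD14. Under each of these scalings and under the median of ratios, the members' median lay 0.26 below that of all measured genes on the log2 scale.

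**Figure D1:**
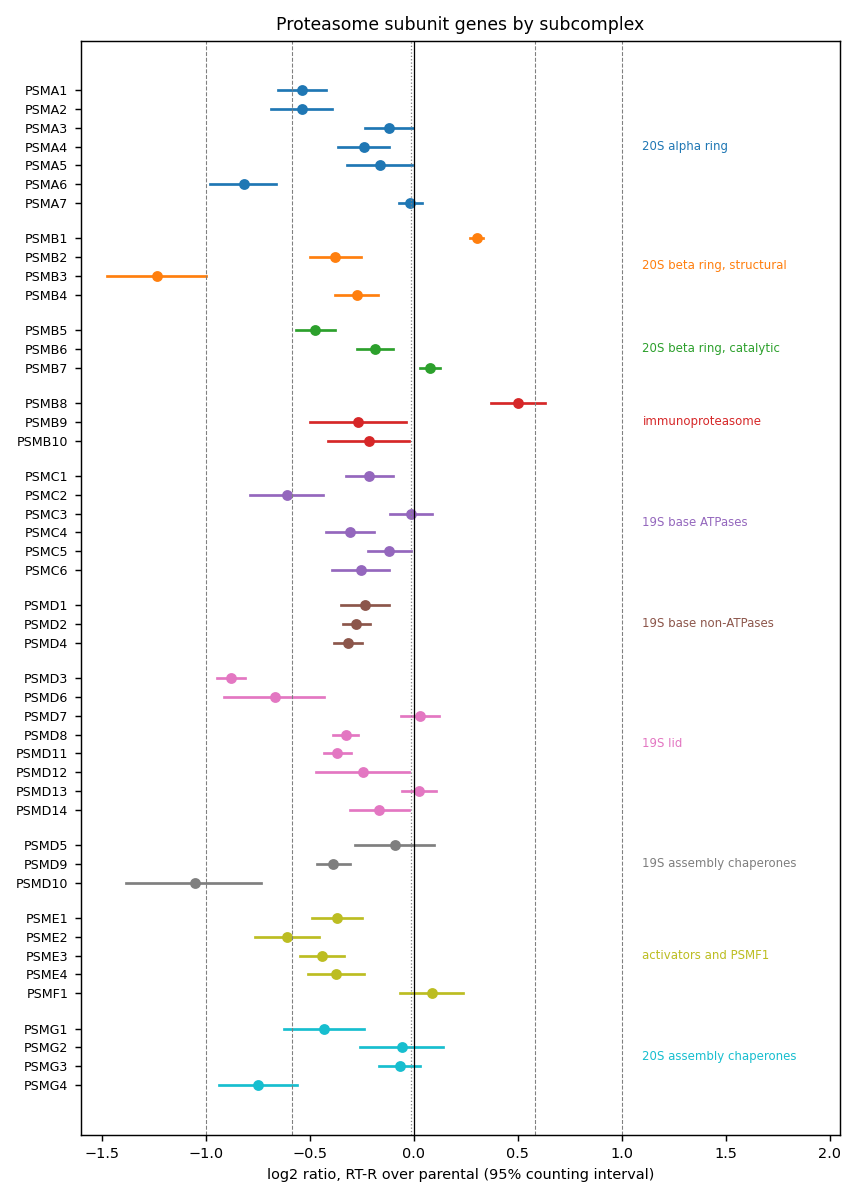
Log2 ratio of RT-R to parental for each of the 46 measured members, by subcomplex, 1 library per line. Points are ratios, bars are 95% counting intervals, dashed lines mark 1.5-fold and 2-fold and the dotted line marks the median of all measured genes at -0.01. The quartiles of the points are -0.44 and -0.12, PSMB3 and PSMD10 lie lowest, and PSMB8 lies highest.

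The alpha ring, which forms the gate of the core, had log2 ratios from -0.82 to -0.02 and a median of -0.24 over its 7 measured genes, and PSMA7 alone of them was above 0 by total counts or upper quartile. The lowest was PSMA6, with 535 counts in the RT-R library and 846 in the parental library, 1.76-fold lower (1.58 to 1.97). Only this alpha gene passed 1.5-fold. PSMA1 had 1085 counts in the RT-R library against 1413 in the parental library, and PSMA2 had 665 against 866, and each of these was 1.45-fold lower. PSMA7 had the highest ratio, with 5498 RT-R and 4987 parental counts, and its interval spanned equal expression. PSMA3, PSMA4 and PSMA5 were between 1.08-fold and 1.18-fold lower, and the PSMA3 gene overlaps the antisense gene PSMA3-AS1, which went the other way with 526 counts in the RT-R library and 392 in the parental library.

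The structural beta subunits, which complete the inner rings without cutting peptides, held both extremes of the constitutive core. PSMB3 had 215 counts in the RT-R library and 454 in the parental library, 2.36-fold lower (2.00 to 2.78), the largest difference of any member. PSMB1 went the other way, with 19600 counts in the RT-R library and 14252 in the parental library, 1.23-fold higher (1.21 to 1.26). It supplied 21.95% of all member counts in the RT-R library and 16.1% in the parental library. PSMB2 was 1.30-fold lower (1.19 to 1.41) and PSMB4 1.21-fold lower (1.12 to 1.30). Every constitutive core particle contains PSMB3 and PSMB1 in equal number, but the log2 ratios of their messenger RNAs were -1.23 and 0.30.

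Among the constitutive catalytic subunits, PSMB5, which gives the chymotrypsin-like activity and is the main target of bortezomib, was lower. It had 1671 counts in the RT-R library and 2080 in the parental library, a 1.39-fold difference (1.30 to 1.48). PSMB6, the caspase-like subunit, had 2259 counts in the RT-R library and 2304 in the parental library, 1.14-fold lower (1.07 to 1.21). PSMB7, the trypsin-like subunit, had 7712 counts in the RT-R library and 6542 in the parental library, 1.06-fold higher (1.02 to 1.09). The noncoding gene LOC100129034 lies within PSMB7 in the reference gene table and had 7965 counts in the RT-R library and 6762 in the parental library, close to the counts of PSMB7, so the reads of these 2 genes cannot be told apart.

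The immunoproteasome subunits did not move together. PSMB8, which replaces PSMB5, had 1230 counts in the RT-R library and 779 in the parental library, 1.42-fold higher (1.29 to 1.55). This was the highest log2 ratio of any member, 0.50, though below 1.5-fold. PSMB9, which replaces PSMB6, had 299 counts in the RT-R library and 323 in the parental library, 1.20-fold lower (1.03 to 1.41). PSMB10, which replaces PSMB7, had 433 counts in the RT-R library and 451 in the parental library, 1.16-fold lower (1.02 to 1.33). The intervals of PSMB9 and PSMB10 spanned equal expression by total counts or upper quartile. The symbols PSMB8 and PSMB9 occurred on several rows of the tables, and all their counts were on a single row. PSMB8 overlaps the antisense gene PSMB8-AS1, with 403 counts in the RT-R library and 336 in the parental library, whose interval (0.928 to 1.25) spanned equal expression. The sources used here do not say whether counting used strand, so reads of this pair cannot be told apart with certainty.

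Set against its constitutive partner, PSMB8 made up 42.4% of the PSMB8 and PSMB5 counts in the RT-R library (exact binomial interval 40.6 to 44.2) and 27.2% in the parental library (25.6 to 28.9), 15.2 percentage points more in RT-R. The intervals did not overlap, and both a higher PSMB8 and a lower PSMB5 count entered the difference. PSMB9 made up 11.7% of its pair in the RT-R library (10.5 to 13.0) and 12.3% in the parental library (11.1 to 13.6), and these intervals overlapped. PSMB10 made up 5.32% of its pair in the RT-R library (4.84 to 5.83) and 6.45% in the parental library (5.88 to 7.05), a difference of -1.13 points that carries the uncertainty of the PSMB7 count. With the immunoproteasome genes summed over all 6 genes the share was 14.4% in the RT-R library and 12.4% in the parental library. Shares of 3' tag counts do not give protein composition, and only their difference between the libraries is compared here.

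**Figure D2:**
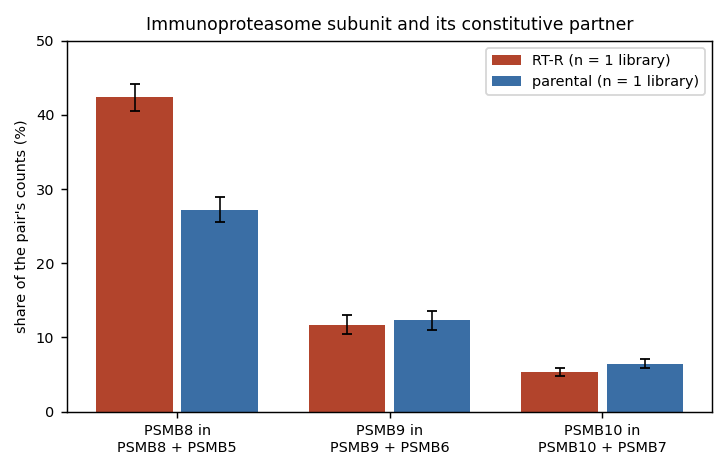
Share of each pair's counts, in percent, that came from the immunoproteasome gene, in RT-R and parental cells, 1 library each, with exact binomial 95% intervals for counting error. The PSMB8 share was 42.4% in RT-R and 27.2% in parental cells, while the PSMB9 intervals overlapped and the PSMB10 share was 5.32% in RT-R and 6.45% in parental cells.

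In the base of the regulatory particle, the ring of ATPases that unfolds substrates had 6 measured genes, all with log2 ratios below 0 except PSMC3 by total counts or upper quartile, and a median of -0.23. PSMC2 was lowest, with 462 counts in the RT-R library and 633 in the parental library, 1.53-fold lower (1.35 to 1.73). It overlaps PMPCB, which had 482 counts in the RT-R library and 494 in the parental library. PSMC3 was nearest to equal expression, with 1731 RT-R and 1565 parental counts and an interval that spanned 1. PSMC1, PSMC4, PSMC5 and PSMC6 were between 1.08-fold and 1.24-fold lower. The 3 base subunits without ATPase activity were the most alike of any group, with log2 ratios from -0.31 to -0.23. They are the scaffold genes PSMD1 and PSMD2, with 1206 and 3658 counts in the RT-R library against 1271 and 3969 in the parental library, and the ubiquitin receptor gene PSMD4, with 3466 RT-R counts against 3866 parental counts. This likeness was not kept after subtraction of the median of chromosomal neighbours, described below. PSMD1 then lay at -0.81, PSMD4 at -0.41 and PSMD2 at -0.11.

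The lid, which removes ubiquitin chains, had the lowest summed ratio of the core, base and lid groups, 0.779 (0.763 to 0.795), but its genes differed unevenly. PSMD3, a lid scaffold subunit, had 2942 counts in the RT-R library and 4847 in the parental library, 1.84-fold lower (1.75 to 1.92). The lid genes together had 16947 counts in the RT-R library and 19506 in the parental library. The rank of the lid by summed ratio therefore rests largely on PSMD3. PSMD6 had 244 counts in the RT-R library and 348 in the parental library, 1.59-fold lower (1.35 to 1.88). The scaffold genes PSMD8, PSMD11 and PSMD12 were between 1.18-fold and 1.29-fold lower. PSMD14, the deubiquitinase of the lid, had 796 counts in the RT-R library and 800 in the parental library, 1.12-fold lower (1.01 to 1.24), an interval that reached past 1 by total counts or upper quartile. Its dimer partner PSMD7 had 2086 counts in the RT-R library and 1833 in the parental library, and PSMD13 had 2676 against 2357, both with intervals that spanned equal expression. The lid median was -0.28.

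Summed over the 17 genes of the base and lid, the level after scaling was 3176 CPM (counts per 1000000 of the scaled library size) in the RT-R library and 3929 in the parental library, a ratio of 0.808 (0.796 to 0.821). The 14 measured constitutive core genes summed to 4384 CPM in the RT-R library and 4321 in the parental library, a ratio of 1.01, but this rested on PSMB1. Without PSMB1, an alternative chosen after the data were seen, the core genes summed to 2457 CPM in the RT-R library and 2758 in the parental library, a ratio of 0.891 (0.875 to 0.907). The base and lid sum kept PSMD3, its lowest gene, so the ratios 0.808 and 0.891 were not formed alike. The medians of core and regulatory particle, -0.26 and -0.25, were nearly the same.

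**Figure D3:**
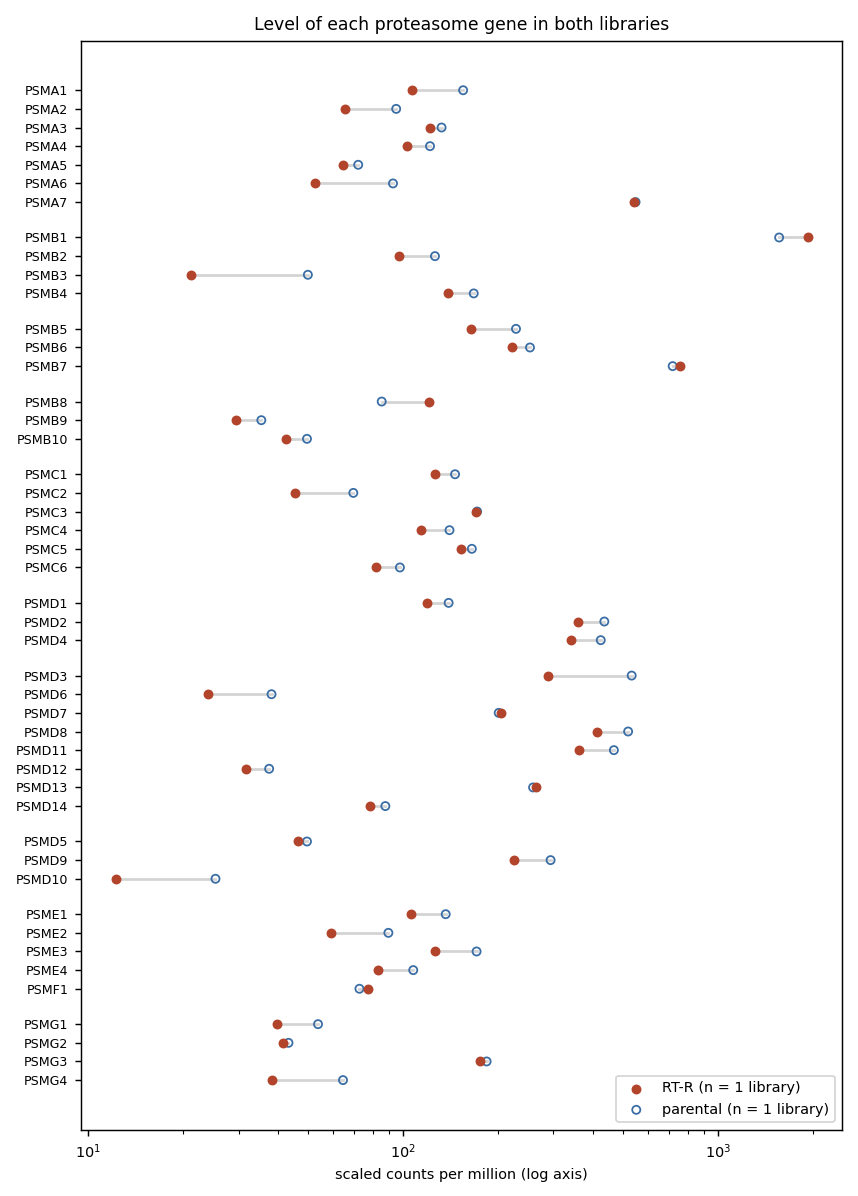
Scaled CPM (log axis) of each measured member in RT-R cells (filled) and parental cells (open), 1 library each, in the order of the subcomplexes. The open point lies to the right of the filled point for 40 of 46 genes, and the widest gap is that of PSMB3.

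Of the 3 chaperones that assemble the base, PSMD9 and PSMD10 were lower. PSMD10, known as gankyrin, had 124 counts in the RT-R library and 231 in the parental library, 2.08-fold lower (1.66 to 2.61). This gene is on the X chromosome, where the median log2 ratio of 424 measured genes was -0.78, and it overlaps ATG4A, which had 202 counts in the RT-R library and 413 in the parental library. PSMD9 was 1.31-fold lower (1.24 to 1.38), and PSMD5 had 472 counts in the RT-R library and 451 in the parental library with an interval that spanned equal expression. Of the chaperones that start the alpha ring, which work as the pairs PSMG1 with PSMG2 and PSMG3 with PSMG4, one gene of each pair was lower. PSMG4 had 390 counts in the RT-R library and 587 in the parental library, 1.68-fold lower (1.47 to 1.91), while PSMG3 had 1786 against 1678, with an interval that spanned 1. PSMG1 was 1.35-fold lower (1.18 to 1.54), and PSMG2 had 422 RT-R and 394 parental counts, with an interval that spanned 1. The PSMG2 gene overlaps SPIRE1, which had 1351 counts in the RT-R library and 814 in the parental library. It also overlaps CEP76, with 55 counts in each library, so the PSMG2 count is uncertain.

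All the alternative caps of the core were lower. PSME1 and PSME2 encode the subunits of the interferon-induced activator PA28. PSME1 had 1074 counts in the RT-R library and 1244 in the parental library, 1.29-fold lower (1.19 to 1.40). PSME2 had 598 counts in the RT-R library and 818 in the parental library, 1.53-fold lower (1.37 to 1.70), and so lay on the other side of equal expression from PSMB8. PSME3, the nuclear activator, had 1281 counts in the RT-R library and 1559 in the parental library, 1.36-fold lower (1.26 to 1.46). PSME4, the activator PA200, had 845 counts in the RT-R library and 981 in the parental library, 1.29-fold lower (1.18 to 1.42). PSMF1, which encodes the core-binding protein PI31, had 784 counts in the RT-R library and 662 in the parental library, and its interval (0.956 to 1.18) spanned equal expression.

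Expression in these libraries also shifted along chromosomes, so each member was set beside the 15 measured genes on each side of it, in the gene order of GRCh38.p14 (fewer near a chromosome end). PSMB3 and PSMD3, both on chromosome 17, stood apart from their surroundings. The neighbours of PSMB3 had a median log2 ratio of -0.03 and 0 of 30 were as low as PSMB3, and those of PSMD3 had a median of -0.02 with 1 of 30 as low. The low values of PSMD10 and PSMD6 lay near those of their neighbours, whose medians were -0.82 on the X chromosome and -0.61 on chromosome 3. PSMA6, PSMG4, PSMC2 and PSME2 lay between, with neighbour medians of -0.39, -0.32, -0.20 and -0.17. PSMB8 was above its neighbours, whose median was -0.25, with 28 of 30 at or below its value. These neighbours include MHC class II genes, with log2 ratios from -2.42 (HLA-DRB5) to -0.05 (HLA-DQB1), and the overlapping PSMB8-AS1 at 0.10. PSMD1 showed the reverse, a log2 ratio of -0.23 among genes with a median of 0.58. The higher PSMB1, at 0.30, lay near its 17 neighbours, whose median was 0.22. After subtraction of the neighbours' medians the members' median log2 ratio was -0.22, against -0.0009 for all measured genes. Across the 46 members, Pearson's r between the member and its neighbours was 0.43 and Spearman's rho 0.40, as a description, since all points come from the same pair of libraries and some members share neighbours.

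**Figure D4:**
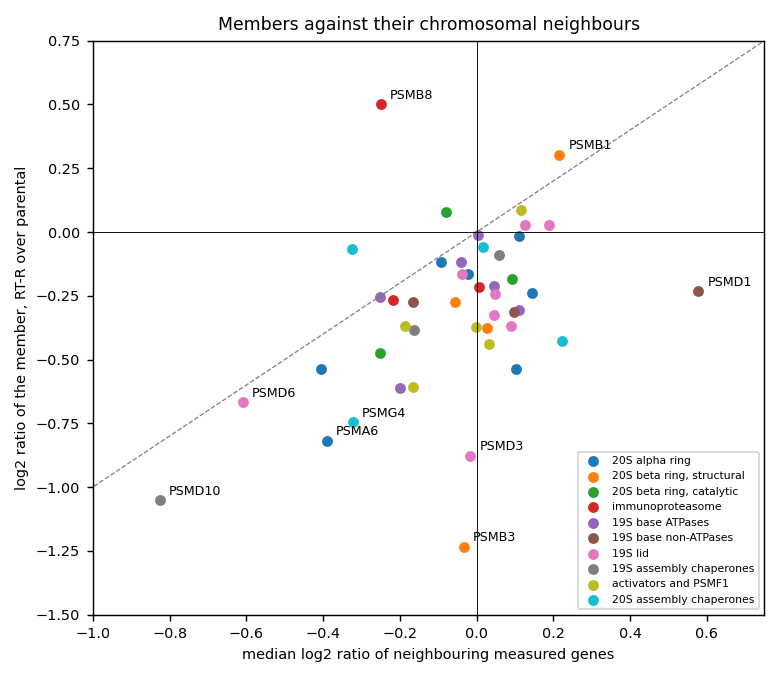
Log2 ratio of each measured member against the median log2 ratio of up to 30 neighbouring measured genes, RT-R over parental, with 1 library per line. Points on the dashed line equal their neighbours. PSMB3 and PSMD3 lie far below neighbours near 0, PSMD10 and PSMD6 lie close to low neighbours, and PSMB8 lies above neighbours at -0.25.

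Of 9 subunit, assembly and bound factors outside the PSM symbols, 0 passed 1.5-fold (against 13.8% of all measured genes higher and 11.9% lower) and the median log2 ratio was -0.11. The lowest was SHFM1, an older symbol of the small lid subunit SEM1, with 1597 counts in the RT-R library and 2095 in the parental library, 1.46-fold lower (1.37 to 1.56). The highest was KIAA0368, an older symbol of the proteasome scaffold gene ECPAS, with 3542 counts in the RT-R library and 2533 in the parental library, 1.25-fold higher (1.19 to 1.32). Among 13 measured ubiquitin and shuttle genes, 2 passed 1.5-fold in the lower direction (15.4%, against 11.9% of all measured genes) and 0 in the higher (against 13.8%), and the median log2 ratio was -0.18. Both were X-linked: UBA1, the main ubiquitin-activating enzyme, had 675 counts in the RT-R library and 1450 in the parental library, 2.40-fold lower (2.19 to 2.63), and UBQLN2, a shuttle factor, had 93 against 169. RPS27A, which encodes ubiquitin fused to a ribosomal protein, had the highest ratio, 1.18-fold (1.17 to 1.20).

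NFE2L1, the transcription factor that raises proteasome subunit genes when proteasome activity is limiting, had 2397 counts in the RT-R library and 1161 in the parental library, 1.85-fold higher (1.73 to 1.99). NGLY1, the deglycosylating enzyme that NFE2L1 needs to become active, had 149 counts in the RT-R library and 234 in the parental library, 1.75-fold lower (1.42 to 2.17). DDI2, the protease that cuts NFE2L1, had only 5 counts in the RT-R library and 1 in the parental library and was not measured. Of the 6 measured regulators, 1 was past 1.5-fold in each direction (16.7%, against 13.8% of all measured genes higher and 11.9% lower) and the median log2 ratio was 0.14. The members with an antioxidant core in a promoter had a median log2 ratio of -0.31 (15 measured), and those with a promoter but no such core had -0.28 (25 measured).

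Several interferon and antigen processing genes are known to be induced together with the immunoproteasome. Among 15 measured genes of this list, 2 passed 1.5-fold in the higher direction (13.3%, against 13.8% of all measured genes) and 1 in the lower (6.67%, against 11.9%), shares that do not set the list apart, and the median log2 ratio was -0.06. IFNGR1, the ligand-binding chain of the interferon gamma receptor, had 147 counts in the RT-R library and 74 in the parental library, 1.78-fold higher (1.34 to 2.39), and the kinase gene JAK1 had 840 against 464, 1.62-fold higher (1.45 to 1.82). The peptide-trimming gene ERAP1 had 468 counts in the RT-R library and 699 in the parental library, 1.67-fold lower (1.48 to 1.88). TAP1, the peptide transporter gene that lies head to head with PSMB9, had 285 counts in the RT-R library and 288 in the parental library, with an interval that spanned equal expression (1.13-fold lower, 0.953 to 1.33). TAP2, the gene of the partner chain, had 1276 counts in the RT-R library and 1394 in the parental library, 1.22-fold lower (1.13 to 1.32). Of PSMB8, PSMB9, TAP1 and TAP2, which lie together on chromosome 6, PSMB8 alone had an interval above equal expression. IRF1, a transcription factor of interferon responses, had 812 counts in the RT-R library and 503 in the parental library, 1.45-fold higher (1.29 to 1.62). TAP1, TAP2, JAK1 and IRF1 were named after their values were seen.

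**Figure D5:**
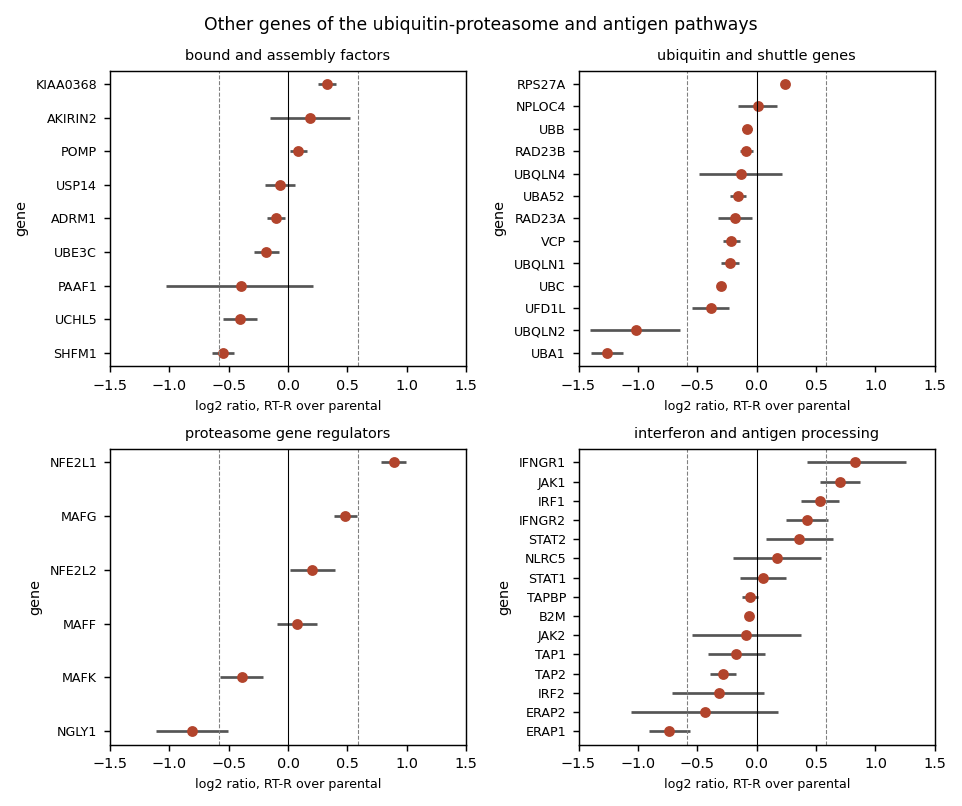
Log2 ratio of RT-R to parental, with 95% counting intervals, for the measured genes of the 4 other lists, 1 library per line; dashed lines mark 1.5-fold. NFE2L1 lies highest among the regulators at 1.85-fold, NGLY1 lowest at 1.75-fold lower, and the X-linked UBA1 and UBQLN2 lie lowest among the ubiquitin genes.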

How the data were processed

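Each library was made from total RNA with a Lexogen QuantSeq 3' tag kit, per the labels' protocols. The deposited values are raw counts, whole numbers of reads for each gene symbol, and were not normalized by the authors. The submitters' processing notes name bcl2fastq 2.20.0.422 along with Bowtie2, bedtools and the build hg19. No source used here gives the role of each tool, the annotation, whether strand was used or how reads with several matches were treated, so overlapping genes and genes with pseudogene copies are uncertain. Counts are of reads, since no molecular identifiers are mentioned.

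Of 25737 rows per table, 0 lacked a gene name, and repeated symbols were summed (62 member rows gave 48 symbols). Library sizes came from edgeR 4.0.16 (TMM, R 4.3.3), with an RT-R to parental ratio of 1.12. Log2 ratios used scaled counts plus 0.5. Ratios carry exact conditional 95% intervals and shares exact Clopper-Pearson intervals (scipy 1.17.1), for counting error only. A gene was measured with at least 20 counts in a library, and was called past 1.5-fold or 2-fold when its interval also excluded 1. The calculation was tested on simulated counts. With 1 library per line no test across samples was possible.

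Gene order came from RefSeq's table for GRCh38.p14, which placed 98.6% of the measured genes, and promoters came from RefSeq for the same build. Because the counts were made on hg19, GRCh38.p14 coordinates were used only for that order, for the promoter windows and to list genes that overlap a member. The alternatives were scaling by total counts, by DESeq2 1.42.0 median of ratios or by upper quartile, a count minimum of 0 or 100, a pseudocount of 5, fold alone, the mean in place of the median, subtraction of chromosomal neighbours and summed immunoproteasome genes. Genes named are the immunoproteasome genes with their partners, the PSME genes and PSMF1, the highest and lowest gene of each subcomplex and list, and every member past 1.5-fold; further genes were named after their values were seen. The members and lists were chosen with earlier results of these data known.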

Additional observations from a re-analysis of the deposited data

How the results depend on the processing

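No paired analysis was possible because each line had 1 library, and for the same reason no library could be left out. The 8 members past 1.5-fold lower became 6 by total counts or upper quartile, without PSMC2 and PSME2, and numbered 8 by the median of ratios, both other count minimums and fold alone. The counts past 1.5-fold higher (0) and past 2-fold (2 lower, 0 higher) did not change under these alternatives. Subcomplex medians stayed below 0 under every scaling, pseudocount and count minimum tried. By the mean of its members the immunoproteasome lay at 0.0057 in place of -0.22, since PSMB8 lies apart from PSMB9 and PSMB10, and the base assembly chaperones lay at -0.51 in place of -0.39. After subtraction of chromosomal neighbours the base subunits without ATPase activity lay at -0.41 in place of -0.28, and the base assembly chaperones at -0.22 in place of -0.39. Of the members named by rule, this subtraction took 16 outside the counting interval of their unadjusted ratio and left 10 within it. PSMD7 and PSMF1 changed sign, to -0.16 and -0.03. Summing the immunoproteasome genes gave 1.98 percentage points more in RT-R, in place of 15.2 for PSMB8, -0.61 for PSMB9 and -1.13 for PSMB10. The summed core ratio of 1.01 was 0.891 without PSMB1. Scaling by total counts or upper quartile put 8 in place of 6 members above 0; PSMA7 and PSMC3 then lay at 0.03 each by total counts. Intervals below equal expression numbered 35 members by TMM, 33 by the median of ratios and 28 by total counts or upper quartile. Depth does not limit the 46 measured members, whose lowest count was 124, but variation between cultures was not measured.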
